A study of Homo sapiens with 4 samples.

Results

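TLK1, CHTF18, MCM10 and SMC3 are 4 genes whose protein products act when chromosomes are copied and held together, and their chromatin loops were followed in GM12878, a line of B lymphoblasts immortalised with Epstein-Barr virus. The genes were chosen by loop counts of these same libraries: TLK1 and CHTF18 were among the genes with the lowest summed counts in the aphidicolin library relative to its vehicle, and MCM10 and SMC3 were extremes of lists of replication and cohesin genes in at least 1 comparison. Every value below is therefore a description. A loop belonged to a gene when 1 of its 2 anchors, each a bin of 5 kb, overlapped the RefSeq gene body. By that rule the 4 genes held 21 of the 41846 loops listed in any library, and 5 of the 9529 loops listed in all 4 libraries.

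Loops bound by SMC1, the cohesin subunit that pairs with SMC3, had been mapped by HiChIP, which combines proximity ligation with immunoprecipitation, so that a count reflects both contact and SMC1 occupancy and the 2 cannot be told apart. For 18 h, one culture had received aphidicolin (APH) at 0.4 µM, which inhibits the polymerases that copy DNA, and another hydroxyurea (HU) at 0.2 mM, which depletes deoxynucleotides. Water (H2O) was the vehicle of HU and dimethyl sulfoxide (DMSO) that of APH. Each group was 1 library of 1 cell line, so nothing below has a replicate check and each difference is one between libraries, no p-value was computed, and intervals are 95% exact intervals that cover counting error only. The titles of the samples name another lymphoblastoid line than their other labels, which give GM12878. Of 12 B cell marker genes, 7 had a loop listed in all 4 libraries, as had 3 of 8 T cell genes and 0 of 8 myeloid and erythroid genes. Of all 19974 protein-coding genes, 4831 had one. Of the myeloid and erythroid genes, 2 had a listed loop in APH, 3 in HU, 1 in H2O and 1 in DMSO. A loop at a gene is no measure of its expression.

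DNA replication starts at licensed origins, where the MCM helicase is converted into an active form, and MCM10 is a factor needed for that step. Behind the fork, TLK1, a kinase most active in S phase, phosphorylates the ASF1 histone chaperones that supply histones to new DNA, and its activity is known to drop when replication is blocked. CHTF18 is the large subunit of an alternative clamp loader that acts on PCNA at forks and helps to establish cohesion between sister chromatids. SMC3 forms the cohesin ring together with SMC1, and its acetylation during S phase locks cohesin on the sisters.

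The anchors lay at different parts of the genes. On hg38, TLK1 (gene ID 9874) spans chr2:170990823-171231293, and all of its 7 loops used the neighbouring bins chr2:171155001-171160000 and chr2:171160001-171165000, inside the gene body and 73.8 and 68.8 kb from its nearer end. CHTF18 (gene ID 63922) spans chr16:788620-798074, and all of its 5 loops used chr16:785001-790000, which covers the start of the gene. MCM10 (gene ID 55388) spans chr10:13161558-13211110. Of its 3 loops, 2 used chr10:13160001-13165000 at its start and 1 used chr10:13205001-13210000 near its end. SMC3 (gene ID 9126) spans chr10:110567695-110606048, and its 6 loops used 4 bins between positions 110585001 and 110610000, toward the end of the gene and away from its start. The annotation used gives gene bodies, so whether an anchor is exonic or intronic is not given here.

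The promoter sequences that lie under anchors are shown because they place the loops of CHTF18 and MCM10 at the starts of these genes. RefSeq windows (GRCh38.p14, from 250 bases before to 50 bases after the gene start) were available for CHTF18, MCM10 and SMC3, and they lay wholly inside an anchor for the first 2 genes and outside every anchor for SMC3. The window of METRN, which encodes the secreted factor meteorin, is added because it crosses the boundary between the 2 bins that form the far anchors of the longest CHTF18 loops. Capitals mark AGGGGGC or its reverse complement GCCCCCT, which is part of the motif of the insulator protein CTCF, and CCAAT or its reverse complement ATTGG, the motif of NFY.
MCM10, chr10:13161308-13161607, plus strand: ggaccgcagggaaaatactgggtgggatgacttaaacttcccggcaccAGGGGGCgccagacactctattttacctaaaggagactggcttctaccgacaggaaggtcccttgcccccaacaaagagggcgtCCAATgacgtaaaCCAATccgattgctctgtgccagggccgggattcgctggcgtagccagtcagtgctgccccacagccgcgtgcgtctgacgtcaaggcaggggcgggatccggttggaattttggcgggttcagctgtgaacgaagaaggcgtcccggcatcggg
CHTF18, chr16:788370-788669, plus strand: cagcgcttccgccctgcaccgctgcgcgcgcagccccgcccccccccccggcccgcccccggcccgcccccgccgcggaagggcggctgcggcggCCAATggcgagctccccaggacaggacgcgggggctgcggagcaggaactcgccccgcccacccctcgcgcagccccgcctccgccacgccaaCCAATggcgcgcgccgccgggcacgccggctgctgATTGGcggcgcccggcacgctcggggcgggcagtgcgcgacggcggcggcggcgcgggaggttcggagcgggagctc
METRN, chr16:714868-715167, plus strand: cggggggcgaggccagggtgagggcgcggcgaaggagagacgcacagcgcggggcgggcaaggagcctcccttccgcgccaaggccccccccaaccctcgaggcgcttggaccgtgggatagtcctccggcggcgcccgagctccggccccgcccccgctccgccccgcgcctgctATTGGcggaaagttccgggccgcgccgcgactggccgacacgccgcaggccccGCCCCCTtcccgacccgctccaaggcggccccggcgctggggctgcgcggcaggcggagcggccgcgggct

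The MCM10 window held AGGGGGC once, on its own strand and 202 bases before the gene start, and CCAAT at 118 and at 105 bases before it. The CHTF18 window held no AGGGGGC, 3 CCAAT motifs counting both strands and 7 copies of the SP1 motif GGGCGG or its reverse complement, with 82.7% G and C bases. The window of RPUSD1, a pseudouridine synthase family gene that is read in the other direction, shared 262 bases with that of CHTF18, so the CHTF18 anchor also covers the start of RPUSD1. The METRN window held AGGGGGC once, on the opposite strand. Over all 35116 RefSeq windows, 14.4% held AGGGGGC, 34.6% CCAAT and 45% GGGCGG on either strand. The other motifs searched, on both strands, were the shorter CTCF core CCCTC (71.2% of windows), the E2F motifs TTTCCCGC (1.63%), TTTGGCGC (0.652%) and TTCCCGCC (3.16%), the NRF1 motif GCGCATGC (3.05%), the ETS core CCGGAAGT (4.14%) and the CHR element TTTGAA (15.2%). CCCTC was found in the windows of CHTF18, MCM10 and SMC3, and TTTGAA in that of SMC3. CCCTC and AGGGGGC may overlap, as may TTTCCCGC and TTCCCGCC. A match is a description of letters and not a bound site.

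**Figure D1:**
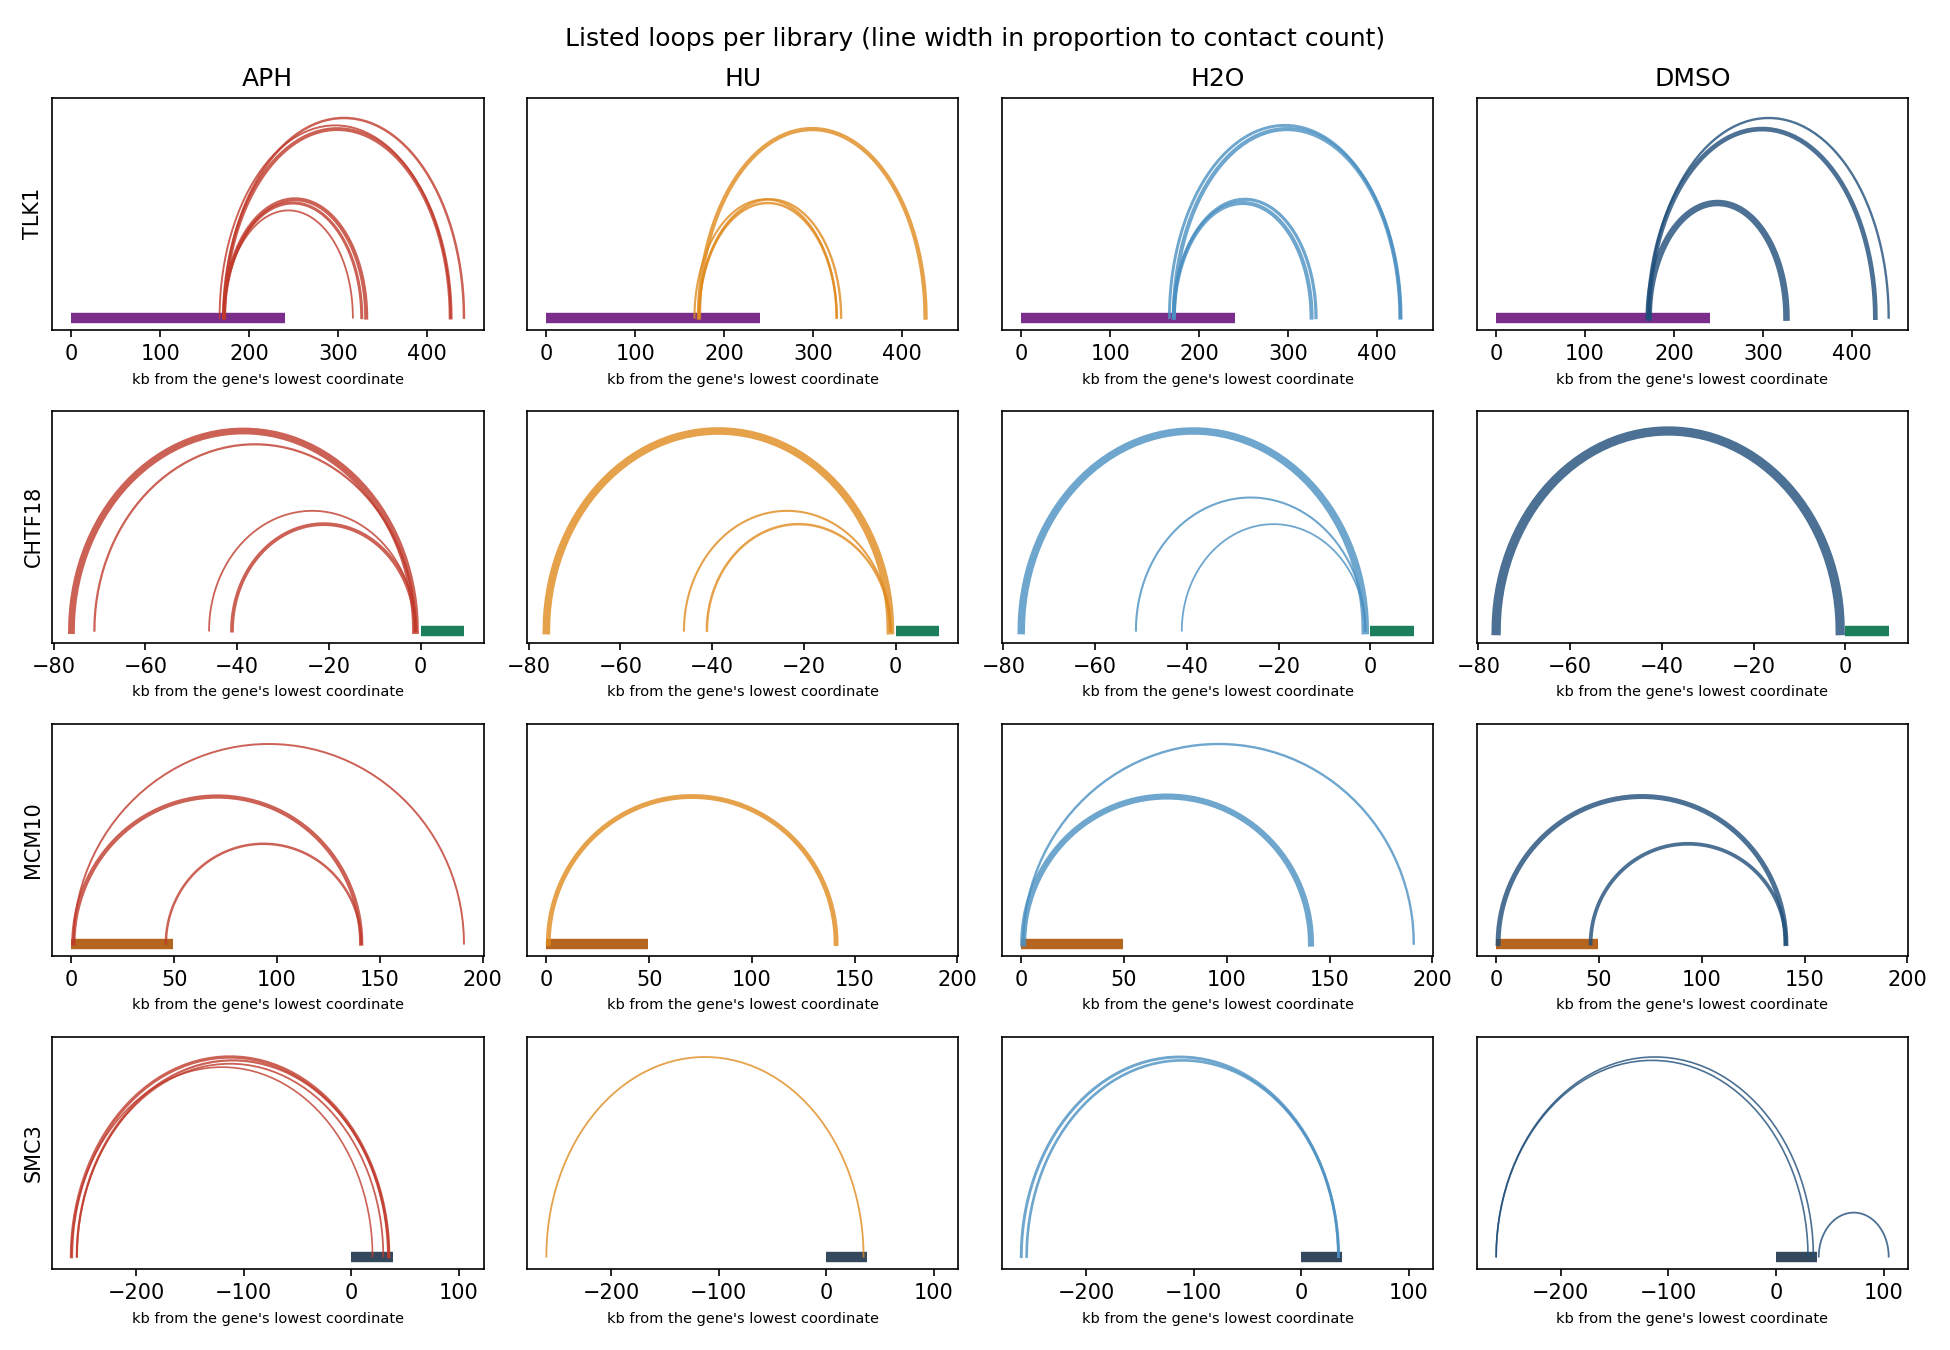
Loops with an anchor on each gene (rows) as listed in each library (columns), against the distance in kb from the gene's lowest coordinate. The filled bar is the gene body and the width of an arc is in proportion to its contact count. TLK1 and SMC3 have bundles of neighbouring arcs, and CHTF18 has 1 loop in DMSO and 3 or 4 in the other libraries.

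TLK1 is described first, since it had the lowest ratio of the 4 genes. Its shared loops ran from inside the gene to 2 places in METTL8, a methyltransferase gene of mitochondrial tRNA. The loop of 155 kb, to chr2:171315001-171320000, had 22 counts in APH and 18 in HU, against 29 in H2O and 47 in DMSO. DMSO alone stood high. The loop of 255 kb, to chr2:171415001-171420000, had 28 counts in APH and 31 in HU, against 30 in H2O and 34 in DMSO. Per 100000 counts over shared loops, the second loop had 7.43 in APH, 9.63 in HU, 9.21 in H2O and 11.3 in DMSO. APH was lowest there and DMSO highest, and the log2 ratio of APH vs DMSO was -0.61 (-1.38 to 0.16). The first loop had 5.84 in APH, 5.59 in HU, 8.91 in H2O and 15.7 in DMSO, scaled in the same way. Its log2 ratio against DMSO was -1.42 (-2.22 to -0.66) in APH, where 6 of the 9529 shared loops had a lower ratio, and -1.49 (-2.36 to -0.67) in HU, where 2 had. Against H2O both drug libraries stood closer, at -0.61 (-1.48 to 0.24) for APH and -0.67 (-1.61 to 0.23) for HU. H2O vs DMSO, which involves no drug, was itself at -0.81 (-1.53 to -0.12).

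The 155 kb loop of TLK1 had neighbours 1 bin away that were listed in other libraries. A pair of 160 kb, from the same TLK1 bin to the next bin of METTL8, had 29 counts in APH, 17 in HU and 23 in H2O and was not listed in DMSO. A second pair of 160 kb, from the adjoining TLK1 bin, had 15 counts in HU and was listed nowhere else. Summed over these 3 linked pairs, the counts were 51 in APH, 50 in HU, 52 in H2O and 47 in DMSO. The listed counts between this part of TLK1 and this part of METTL8 were thus nearly the same in all 4 libraries, spread over 2 pairs in APH, 3 in HU, 2 in H2O and 1 in DMSO. Scaled by the loops linked in the same way in all libraries, the log2 ratio of the sum against DMSO was -0.35 (-0.95 to 0.25) in APH and -0.058 (-0.66 to 0.55) in HU. A pair that is not listed is not a measured 0, since listed pairs have at least 12 counts. Such sums leave out what the missing pairs held, so their ratios depend on which pairs were listed and are not read as fold differences, here and for the genes below.

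**Figure D2:**
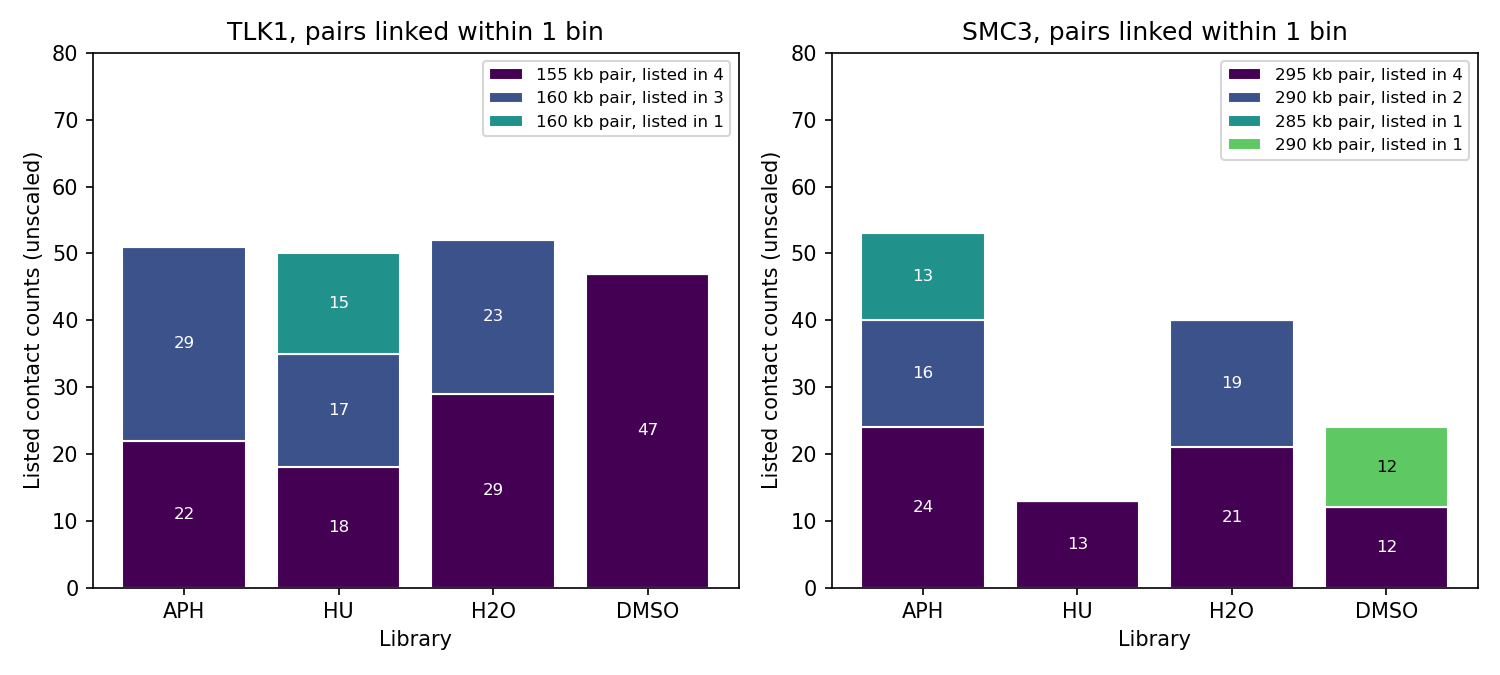
Unscaled contact counts of pairs of 5 kb bins linked within 1 bin of each other, stacked per library, for the 155 to 160 kb pairs of TLK1 and the 285 to 295 kb pairs of SMC3. A missing segment is a pair not listed in that library. The TLK1 stacks reach 51, 50, 52 and 47 counts from left to right, while the SMC3 stacks reach 53, 13, 40 and 24.

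The remaining TLK1 loops were weaker. The 255 kb loop had a neighbour of 260 kb with 14 counts in APH and 21 in H2O. Summed with it, the counts were 42 in APH and 31 in HU, against 51 in H2O and 34 in DMSO, and H2O stood highest. A loop of 270 kb to the bin that holds the starts of METTL8 and DCAF17 had 18 counts in APH and 17 in DMSO, and one of 145 kb had 13 in APH. The 2 METTL8 anchors were also joined to each other by a loop of 100 kb, with 35 counts in APH and 35 in HU, against 55 in H2O and 43 in DMSO. Both drug libraries were below both vehicles here too, with log2 ratios of -0.62 (-1.31 to 0.053) for APH vs DMSO, -0.86 (-1.52 to -0.23) for APH vs H2O, -0.64 (-1.29 to 0.0012) for HU vs H2O and -0.40 (-1.08 to 0.28) for HU vs DMSO. All 5 shared loops of METTL8 that do not touch TLK1, this one among them, had together 190 counts in APH, 152 in HU, 181 in H2O and 148 in DMSO. Their log2 ratio in HU was -0.24 (-0.56 to 0.083) against H2O. In APH it was 0.033 (-0.29 to 0.35) against DMSO, a pooled value that holds the lower ratio of the 100 kb loop. The 1 shared loop that encloses TLK1 had 20 counts in APH and 22 in HU, against 21 in H2O and 20 in DMSO. Relative to the expected counts in the deposited lists, the 155 kb loop stood at 3.14 in APH, 3.64 in HU, 4.34 in H2O and 6.13 in DMSO, and the 255 kb loop at 6.24 in APH, 8.28 in HU, 7.12 in H2O and 6.63 in DMSO.

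For the whole TLK1 gene, the sum over its 2 shared loops was 50 counts in APH and 49 in HU, against 59 in H2O and 81 in DMSO. Both drug libraries were below both vehicles. The log2 ratio was -1.02 (-1.56 to -0.50) for APH vs DMSO, -0.45 (-1.02 to 0.12) for APH vs H2O, -0.25 (-0.83 to 0.32) for HU vs H2O and -0.83 (-1.37 to -0.30) for HU vs DMSO. H2O vs DMSO was at -0.57 (-1.08 to -0.07). Of all 4831 genes with a shared loop, 18 had a lower ratio than TLK1 in APH vs DMSO, 45 in HU vs DMSO and 182 in H2O vs DMSO. The comparisons that share a vehicle share its counts, and the high DMSO count enters 2 of the 4 drug comparisons. Matching anchors within 1 bin brought APH vs DMSO to -0.27 and HU vs DMSO to -0.15, and HU vs H2O was above 0 with at least 24 counts per loop (0.059) or after division by expected counts (0.062).

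**Figure D3:**
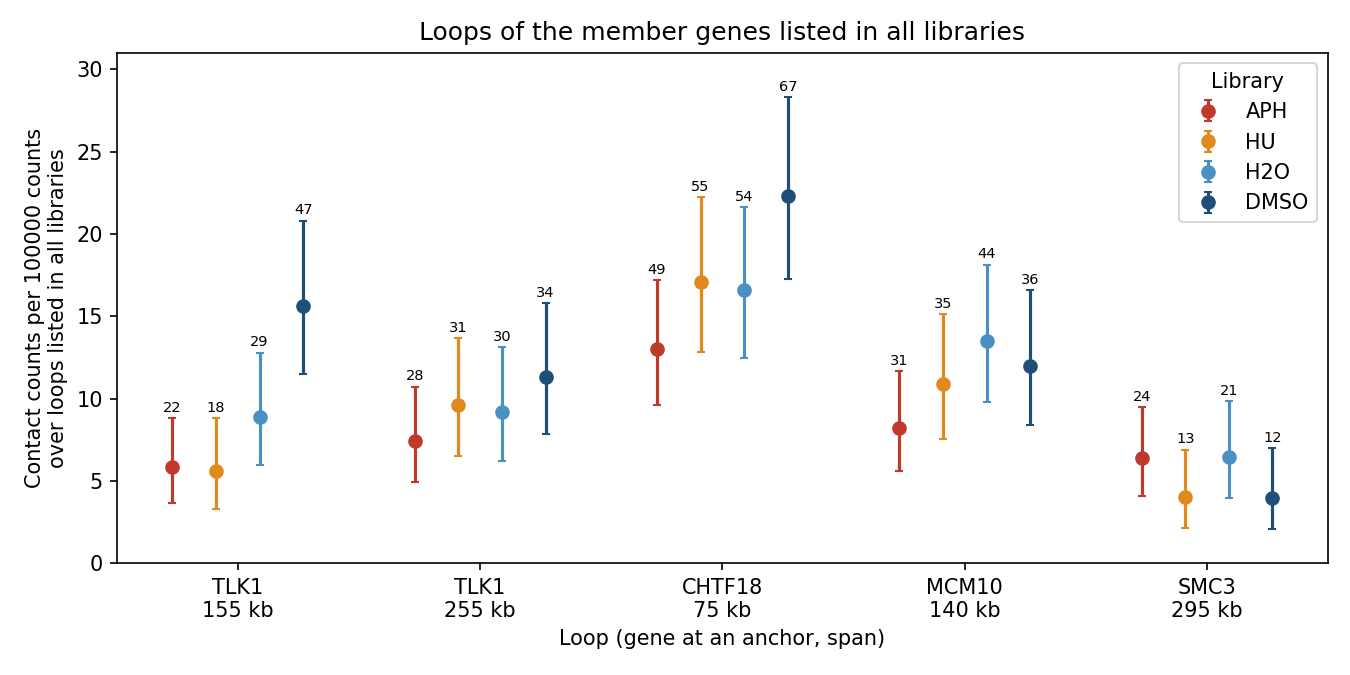
Scaled contact counts (y) of the 5 member loops that every library listed, per 100000 counts over all such loops (points), with 95% exact Poisson intervals (bars) and the raw count above each point. The 155 kb loop of TLK1 has 47 counts in DMSO and 18 to 29 elsewhere, and the SMC3 loop has 12 to 24 in all.

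CHTF18 had its strongest loop of 75 kb to chr16:710001-715000, a bin that overlaps no protein-coding gene body and ends just before METRN. This loop had 49 counts in APH and 55 in HU, against 54 in H2O and 67 in DMSO. Per 100000 shared counts these were 13 in APH, 17.1 in HU, 16.6 in H2O and 22.3 in DMSO, so that APH was lowest, DMSO highest and HU close to H2O. As the only shared loop, it gave the gene's log2 ratio, which was -0.78 (-1.34 to -0.23) for APH vs DMSO, -0.35 (-0.94 to 0.23) for APH vs H2O, 0.042 (-0.53 to 0.61) for HU vs H2O and -0.39 (-0.93 to 0.15) for HU vs DMSO. H2O vs DMSO was at -0.43 (-0.97 to 0.11). The value of HU vs H2O was below 0 after division by expected counts (-0.28) and after correction for the span of loops (-0.034). The same loop is that of RPUSD1, which has no other shared loop.

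Of the 5 shared loops this one stood farthest above its expected count in HU, H2O and DMSO. It had 11.4 times the deposited expected count in APH, 12.7 in HU, 15.4 in H2O and 17.8 in DMSO. Shorter loops from the same anchor were listed in APH, HU or H2O and none of them in DMSO. DMSO had the shortest list, with 17660 of the 41846 loops listed in any library, against 27395 in APH, 21448 in HU and 22446 in H2O. A loop missing from it is not a measured 0. A loop of 40 kb had 27 counts in APH and 18 in HU, against 13 in H2O. A loop of 45 kb to CIAO3, a gene of iron-sulfur protein assembly, had 13 counts in APH and 15 in HU, and one of 50 kb to CIAO3 had 15 in H2O. A loop of 70 kb to METRN, 1 bin from the strongest loop, had 16 counts in APH alone. Summed with that neighbour, the counts were 65 in APH and 55 in HU, against 54 in H2O and 67 in DMSO, and the log2 ratio of APH vs DMSO was -0.51 (-1.03 to 0.00035), while APH vs H2O turned to 0.0092 (-0.53 to 0.56). Over all listed loops of CHTF18, APH had 105 counts in 4 loops and 25 kb of anchors, HU 88 in 3 loops and 20 kb, H2O 82 in 3 loops and 20 kb, and DMSO 67 in 1 loop and 10 kb. The order of these sums is not that of the strongest loop, and they move with how many loops were listed.

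MCM10 had 1 shared loop, of 140 kb, from its own start to chr10:13300001-13305000 on PHYH, a gene of peroxisomal fatty acid oxidation. It had 31 counts in APH and 35 in HU, against 44 in H2O and 36 in DMSO. Scaled per 100000 shared counts, both drug libraries stood below both vehicles, at 8.22 in APH and 10.9 in HU, against 13.5 in H2O and 12 in DMSO. The log2 ratio was -0.54 (-1.28 to 0.19) for APH vs DMSO, -0.72 (-1.43 to -0.02) for APH vs H2O, -0.31 (-1.0 to 0.36) for HU vs H2O and -0.14 (-0.86 to 0.57) for HU vs DMSO. APH was lower against H2O than against DMSO, the other way round from TLK1, though the intervals overlap. H2O vs DMSO was at 0.17 (-0.50 to 0.85), or -0.067 when scaled by all listed loops. No pair 1 bin away from this loop was listed in any library, unlike for TLK1, CHTF18 and SMC3. What unlisted neighbouring pairs held is not known. Its observed count was 5.2 times the expected one in APH, 6.59 in HU, 8.62 in H2O and 7.43 in DMSO. Of all measured genes, 103 had a lower ratio in APH vs H2O.

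The other loops of MCM10 differed in which libraries listed them. A loop of 95 kb from the end of the gene to the same PHYH anchor had 18 counts in APH and 27 in DMSO, and one of 190 kb from the start had 14 in APH and 17 in H2O. HU listed neither. The PHYH anchor also held 1 shared loop of 30 kb that does not touch MCM10, with 41 counts in APH, 45 in HU, 34 in H2O and 25 in DMSO. Its log2 ratio in APH was 0.39 (-0.37 to 1.16) against DMSO and in HU 0.42 (-0.25 to 1.11) against H2O, on the other side of 0 from the MCM10 loop at the same anchor, with intervals that hold 0. Against the other vehicle it was 0.75 (0.011 to 1.51) for HU vs DMSO, past 1.5-fold, and 0.059 (-0.63 to 0.76) for APH vs H2O.

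SMC3 had the fewest counts. Its shared loop of 295 kb, to chr10:110305001-110310000, had 24 counts in APH and 13 in HU, against 21 in H2O and 12 in DMSO. The far bin overlaps no protein-coding gene body and holds 170 bases of the promoter window of SMNDC1, a splicing factor gene. APH and H2O were the higher pair and HU and DMSO the lower one, so the libraries did not divide by drug and vehicle. The log2 ratio was 0.67 (-0.38 to 1.81) for APH vs DMSO, -0.02 (-0.93 to 0.90) for APH vs H2O, -0.68 (-1.80 to 0.39) for HU vs H2O and 0.015 (-1.23 to 1.28) for HU vs DMSO. H2O vs DMSO, at 0.69 (-0.40 to 1.85), was as large. In all, 104 genes were higher than SMC3 in APH vs DMSO, 61 were higher in H2O vs DMSO and 117 were lower in HU vs H2O. Every one of these intervals holds 0, so for this single pair of bins no difference between libraries was detectable at this depth.

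Around the SMC3 loop, as around that of TLK1, neighbouring pairs were listed. A pair of 290 kb had 16 counts in APH and 19 in H2O, a pair of 285 kb had 13 in APH, and another of 290 kb had 12 in DMSO. A pair of 280 kb with 12 counts in APH lay farther off. Summed over the 4 linked pairs, the counts were 53 in APH over 3 pairs and 13 in HU over 1 pair, against 40 in H2O over 2 pairs and 24 in DMSO over 2 pairs. HU had the fewest listed counts and pairs, and its 3 unlisted pairs are not measured as 0. Scaled like the sum of TLK1, the log2 ratio was -1.56 (-2.58 to -0.62) for HU vs H2O and -1.03 (-2.13 to -0.00048) for HU vs DMSO. It was 0.67 (-0.048 to 1.43) for APH vs DMSO, 0.15 (-0.47 to 0.78) for APH vs H2O and 0.53 (-0.24 to 1.32) for H2O vs DMSO. These ratios depend on which pairs were listed and are not read as fold differences. The 2 other shared loops at the SMNDC1 anchor had 58 counts in APH and 47 in HU, against 58 in H2O and 48 in DMSO. A loop of 65 kb from the end of SMC3 to RBM20, a regulator of cardiac splicing, had 13 counts in DMSO and was not listed elsewhere. With the linked pairs of 50 to 70 kb, which do not touch SMC3, the counts were 49 in APH and 73 in HU, against 59 in H2O and 37 in DMSO. HU was highest there and lowest in the 295 kb group. The 3 shared loops of RBM20 itself had 119 counts in APH and 108 in HU, against 95 in H2O and 81 in DMSO.

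**Figure D4:**
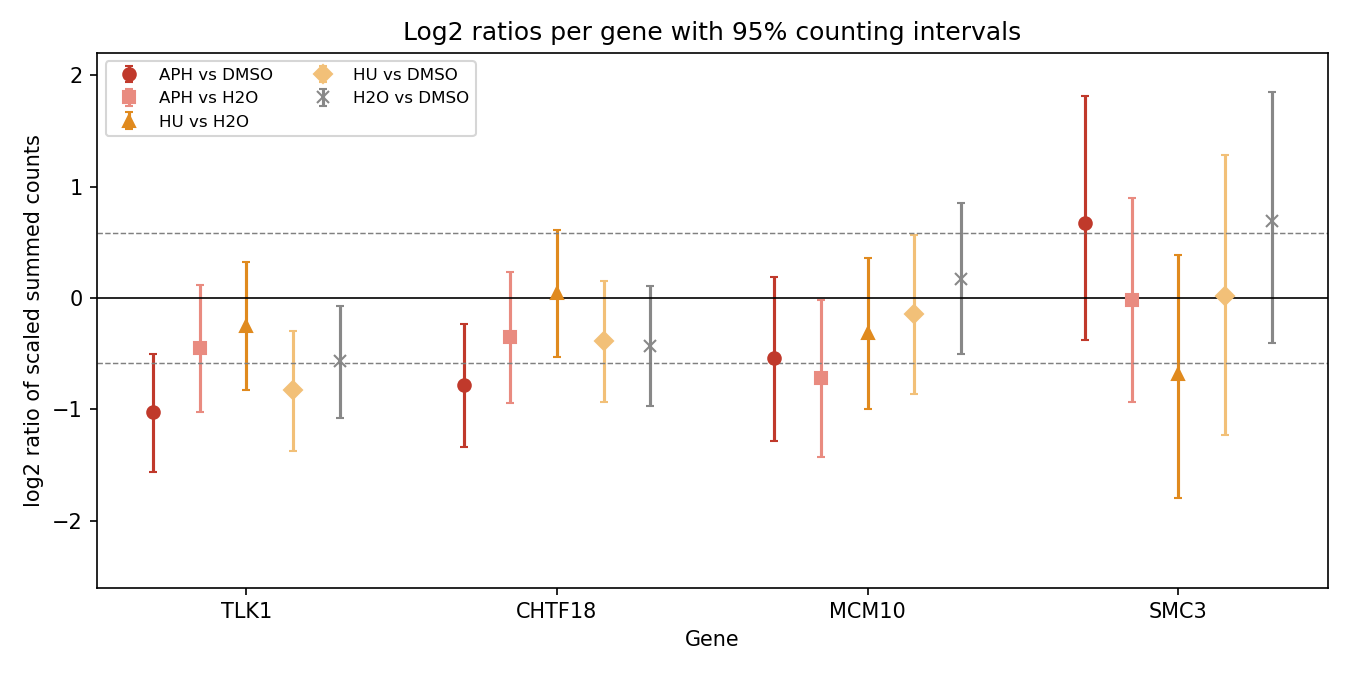
Log2 ratios of scaled counts summed over the shared loops of each gene, for each drug library against each vehicle and for H2O against DMSO (points), with 95% exact conditional binomial intervals (bars). Dashed lines mark a ratio of 1.5 either way. TLK1 is lowest in APH vs DMSO at -1.02, and each of the 5 SMC3 intervals holds 0.

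The genes were then set against all 4831 protein-coding genes with a shared loop, where past 1.5-fold in either direction counts as called. In APH vs DMSO, 2 of the 2 members with at least 100 counts in the pair of libraries, TLK1 and CHTF18, were past it, where 2.74% of all such genes were called. This comparison chose them, so nothing is read from that count. Of the 2 members with fewer counts 1 was past it, SMC3, beside 14.9% of genes with 24 to under 100 counts. Some calls were lost under alternatives, meaning that the recomputed value was not past 1.5-fold. That of SMC3 was lost when scaled by all listed loops (0.30), within 1 bin (0.27) or at gene ends (0.28). That of CHTF18 was lost within 1 bin (-0.51), and that of TLK1 within 1 bin (-0.27) or after division by expected counts (-0.58). Values within 1 bin move with which pairs a library listed, so they do not decide whether a call holds. DMSO did not list some of the pairs summed for CHTF18 and TLK1. For SMC3 that matching also pooled the pairs of 50 to 70 kb, most of which do not touch the gene. Its 285 to 295 kb pairs alone were at 0.67. In APH vs H2O neither TLK1 nor CHTF18 was past 1.5-fold (3.54% of genes), and of the 2 with fewer counts MCM10 was (16.0%). In HU vs H2O neither of the first 2 was (4.81%), and SMC3 was (17.4%), a call lost within 1 bin (-0.14), after correction for span (-0.55) and at gene ends (0.33). The value of -0.14 again pooled the pairs of 50 to 70 kb, and the 285 to 295 kb pairs alone were at -1.56. In HU vs DMSO TLK1 was (4.53%), a call lost within 1 bin (-0.15), with at least 24 counts (-0.23) and after division by expected counts (-0.16), and neither MCM10 nor SMC3 was (15.3%). In H2O vs DMSO neither TLK1 nor CHTF18 was (1.38%), though TLK1 was 1.49-fold lower in H2O. SMC3 was (11.2%), a call lost when scaled by all listed loops (0.45), within 1 bin (0.49) and at gene ends (0.24). Alternatives also added calls. Scaled by all listed loops, TLK1 (-0.81) and CHTF18 (-0.67) were past 1.5-fold in H2O vs DMSO, and TLK1 (-0.59) in APH vs H2O. MCM10 was past it in APH vs DMSO with that scaling (-0.92), with loops listed in both libraries (-0.69) or within 1 bin (-0.69). The call of MCM10 in APH vs H2O was kept under each of its 8 alternatives, but most of these reuse the counts of its 1 shared loop. MCM10 was also the lowest of the replication list in this comparison, which bears on its choice, so nothing is read from that call.

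**Figure D5:**
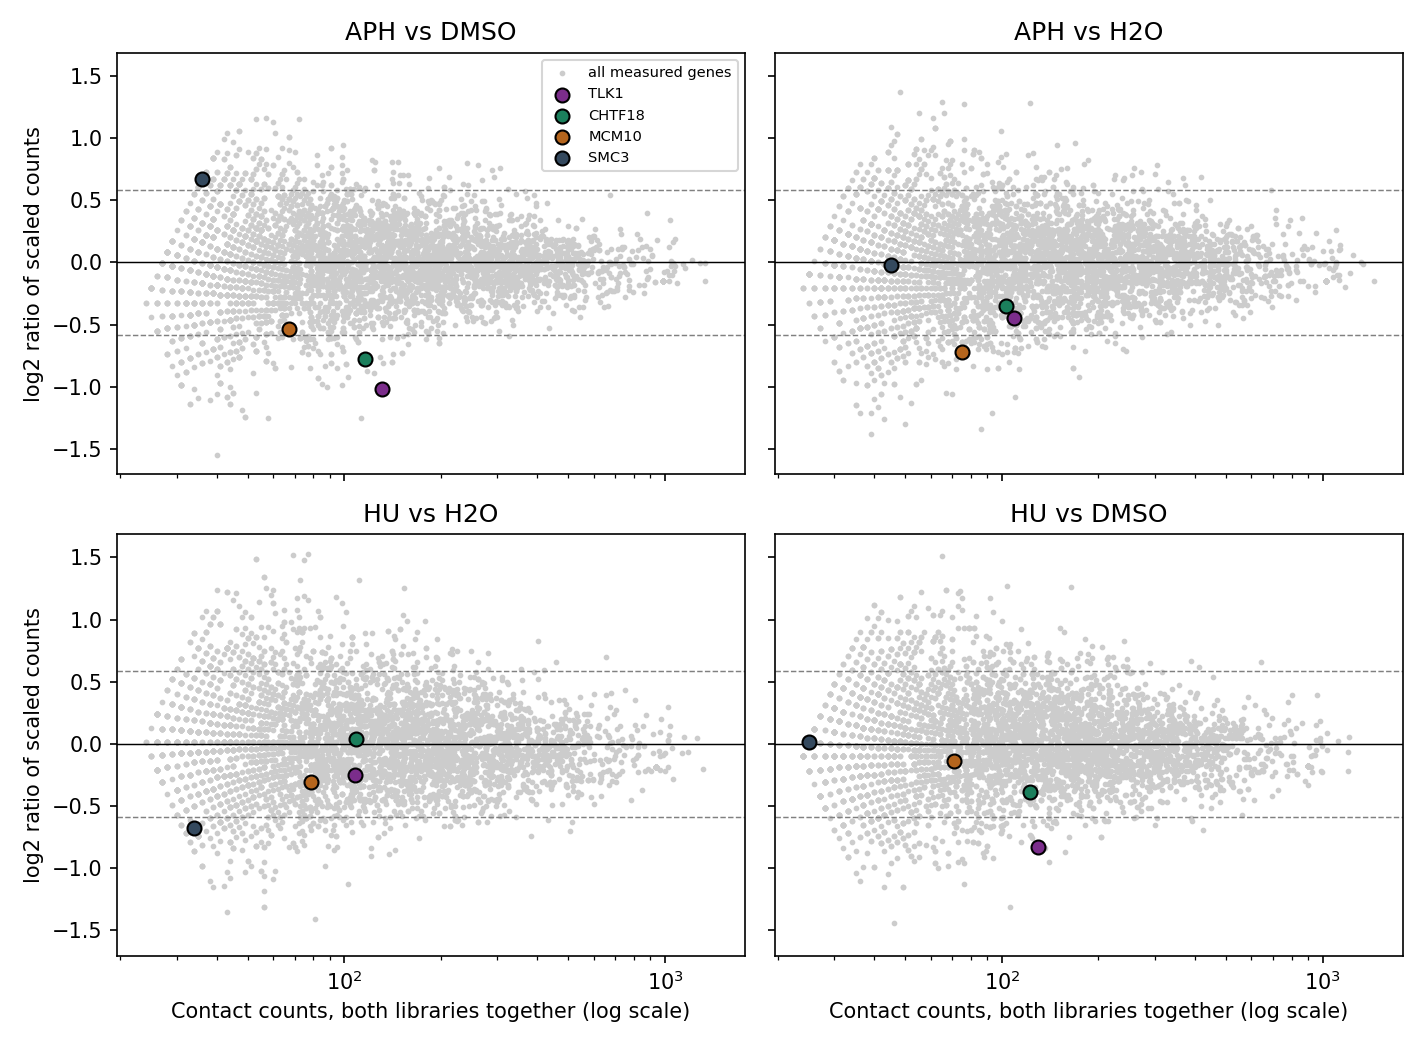
Log2 ratio of scaled summed counts (y) against the counts of both libraries together (x, log scale) for every measured gene (grey) and for the 4 members (coloured), in the 4 comparisons of a drug library with a vehicle. Grey points fan out below 100 counts, where MCM10 and SMC3 lie. TLK1 and CHTF18 lie at the lower edge of the grey points in APH vs DMSO and inside them in HU vs H2O.

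Of the wider list of 69 DNA replication and chromatin assembly genes, 24 had a shared loop. TLK1 was the only one of them past 1.5-fold in APH vs DMSO, with 1 lower and 0 higher. The list's median log2 ratio was -0.016, beside -0.015 over all genes. TLK1 and MCM10 were chosen by such counts, so nothing is read from their places in this list. In APH vs H2O 3 were lower and 1 higher with a median of -0.092 (all genes -0.01). MCM10 (-0.72), the primase subunit gene PRIM2 (-0.67) and the kinase gene CDC7 (-0.61), which fires origins, were the lower ones, and POLE3, a polymerase epsilon subunit gene, was at 0.71. These 4 also have under 100 counts, where 16.0% were past it, and the intervals of CDC7 and POLE3 hold 0. In HU vs H2O 3 were lower and 1 higher, with a median of -0.24 (all genes 0.0024). The lower ones were DBF4, which encodes the activating subunit of CDC7 (-0.98), CDC7 itself (-0.73) and CHAF1A, a chromatin assembly factor gene (-0.62). DBF4 had 12 counts in HU and 24 in H2O. The intervals of all 3 hold 0, and each has under 100 counts, where 17.4% of genes were past 1.5-fold in this comparison. POLA2, a polymerase alpha subunit gene, was at 0.63, with 52 counts in HU and 34 in H2O and an interval (-0.022 to 1.30) that also holds 0. In HU vs DMSO 5 were lower, namely DBF4, TLK1, MCM5, CDC7 and ORC2, and 1 higher, ATRIP at 0.62, with a median of -0.14 (all genes -0.0039). The intervals of DBF4, CDC7 and ORC2 hold 0. DBF4, CDC7 and MCM5 have under 100 counts, where 15.3% of genes were past 1.5-fold in this comparison. In H2O vs DMSO MCM5, a helicase subunit gene, was lower at -0.75 and 0 were higher, with a median of 0.12 (all genes 0.002). MCM5 has under 100 counts there too, where 11.2% of genes were past it. Of all 4831 genes, 4.51% were lower and 4.06% higher in APH vs DMSO, 4.7% lower and 4.6% higher in APH vs H2O, 4.31% lower and 6.69% higher in HU vs H2O, 4.55% lower and 5.49% higher in HU vs DMSO, and 3.48% lower and 2.86% higher in H2O vs DMSO.

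Of 26 cohesin and cohesion genes 10 had a shared loop. In APH vs DMSO SMC3 was past 1.5-fold higher and CHTF18 lower, and they were the highest and the lowest of the list, whose median was -0.10. Both genes were chosen by such counts, so nothing is read from their places at the ends of this list. In APH vs H2O none of the 10 was past 1.5-fold in either direction, with a median of -0.076. In HU vs H2O CHTF8, which encodes the small partner of CHTF18 in the same clamp loader, was the highest at 0.96, and SMC3 was the lowest. CHTF8 had 27 counts in HU and 14 in H2O, and its interval (-0.018 to 2.01) holds 0. CHTF8 and SMC3 have under 100 counts there, where 17.4% of genes were past 1.5-fold. The list's median there was 0.024. The ends of the list in APH vs H2O were PDS5A at 0.25 and PDS5B at -0.42, both genes of regulators that bind the ring. In HU vs DMSO CHTF8 was past 1.5-fold at 0.75 (-0.21 to 1.76), and in H2O vs DMSO SMC3 was at 0.69 (-0.40 to 1.85). Both intervals hold 0. Both genes have under 100 counts, where 15.3% of genes were past 1.5-fold in HU vs DMSO and 11.2% in H2O vs DMSO. The shares and medians over all genes are those given with the replication list.

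Genes with a pattern over the 4 libraries like that of a member were picked by the distance between centred log2 scaled counts, among 3834 genes with at least 100 counts in all. Nearest to TLK1 were VPS13B (distance 0.125), PEPD (0.136) and CCR4 (0.176), each with 1 shared loop. VPS13B had 38 counts in APH and 34 in HU, against 46 in H2O and 60 in DMSO. Nearest to CHTF18 were NT5DC1 (0.0641), FAM240A (0.101) and KCNK7 (0.107). Nearest to MCM10 were FAM3C (0.101), DAZL (0.103) and TMEM102 (0.104). SMC3 was nearest to LRRC74A (0.197), MMS22L (0.199) and BCR (0.238), and BCR had 140 counts in APH and 88 in HU, against 120 in H2O and 82 in DMSO. With 4 libraries such likeness is a description of these counts only.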

How the data were processed

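SMC1 HiChIP was measured in 4 GM12878 libraries, grouped by the treatment in the labels. The authors deposited 1 list of loops per library with contact counts per pair of 5 kb bins, not normalized; the lists have no header, so columns were read from their values. A further deposited column is taken as the caller's expected count, and another as its adjusted p-value (below 0.01 throughout, not used). Per the submitters' processing notes, bcl2fastq 2.17 and MACS3 3.0.1 were used with build hg38; which aligner and loop caller made the lists is not given in the sources used here. Lists held 27395 loops and 732695 counts in APH, 21448 and 550828 in HU, 22446 and 575756 in H2O, and 17660 and 449565 in DMSO; total read depth is unknown.

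Shared loops are those that every library listed, and their counts were divided by the library's sum over them (376948 in APH, 322048 in HU, 325634 in H2O and 300320 in DMSO), with no pseudocount, using numpy 2.4.6, scipy 1.17.1 and pandas 2.3.3 under Python 3.11.15, with matplotlib 3.10.9 for figures. Intervals are exact conditional binomial for ratios and exact Poisson for counts. Reads carry no stated molecular identifiers, so intervals may be too narrow. The steps were tested on simulated data. Gene bodies and promoter windows came from RefSeq GRCh38.p14. Members and lists were chosen with earlier results of these data known. Named genes are the members, genes sharing their anchors, list members past 1.5-fold or at a list's ends, and the 3 nearest genes per member. Alternatives covered scaling, matching and assignment of loops, count minimums, expected counts and span classes.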

Additional observations from a re-analysis of the deposited data

Results flagged for a closer look

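Of the 4 genes, 2 had log2 ratios of opposite sign in the drug libraries, each against its own vehicle. SMC3 stood at 0.67 in APH vs DMSO and at -0.68 in HU vs H2O. CHTF18 stood at -0.78 in APH vs DMSO and at 0.042 in HU vs H2O. With 1 library per group the difference between the drugs was not tested. H2O vs DMSO was at 0.69 for SMC3 and at -0.43 for CHTF18, so the vehicle libraries differed as well.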

How the results depend on the processing

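Of 150 ratios of the 4 genes recomputed under 8 alternatives, 145 lay within the counting interval of the reported value, and the 5 outside it were of TLK1. Some alternatives changed only the scaling, by less than the intervals reach, or kept the same single loop. Their values could not leave the interval, so the 145 are no measure of robustness. TLK1 moved out in APH vs DMSO with anchors matched within 1 bin (-0.27), and in HU vs DMSO with that matching (-0.15), with at least 24 counts in each library (-0.23) and after division by expected counts (-0.16), and in H2O vs DMSO with the matching (0.13). The matching sums listed pairs 1 bin apart, and for TLK1 and SMC3 it pools 2 linked groups of pairs. The minimum of 24 leaves 1 TLK1 loop, and the cause of the move with expected counts was not tested. SMC3 in HU vs H2O turned to 0.33 with loops at gene ends within 5 kb, which adds a loop of 60 kb to RBM20 with 44 counts in HU and 25 in H2O. No value could be had for TLK1 with gene ends, or for SMC3 with at least 24 counts. Other changes of sign were in ratios not past 1.5-fold: besides those of TLK1, CHTF18 and MCM10 given above, SMC3 went to 0.047 (gene ends) and 0.15 (span class) in APH vs H2O, and to -0.18 (all listed loops) in HU vs DMSO.

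Scaling by all listed loops shifted every log2 ratio by -0.38 in APH vs DMSO, -0.14 in APH vs H2O, 0.048 in HU vs H2O, -0.19 in HU vs DMSO and -0.24 in H2O vs DMSO. In the same order of comparisons, 0%, 14.3%, 81%, 8.02% and 0% of the genes past 1.5-fold were then higher, in place of 56.5%, 59.8%, 66.1%, 59.8% and 51.5%. The genes past 1.5-fold then numbered 481, 133, 126, 162 and 149, or 19.1%, 5.12%, 5.14%, 6.85% and 6.24% of those with at least 100 counts. With a minimum of 50 counts in place of 100, 224, 281, 337, 305 and 123 genes were past 1.5-fold, in place of 69, 92, 118, 107 and 33. At least 24 counts left SMC3 with 1 listed loop in APH and 0 in the others. No paired analysis was possible because each group has 1 library. The 21 loops of the 4 genes had 12 to 67 counts each, so the intervals are wide. The median of the replication list in APH vs DMSO moved to -0.39 under the scaling by all listed loops.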
